A study of Homo sapiens with 8 samples.

Results

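Peroxisomes are organelles bounded by a single membrane that take their enzymes up ready folded from the cytosol, and the proteins that build them, the peroxins, carry the symbol PEX. A set of 37 names was drawn up from the symbols that start with PEX, ABCD or ACOX and a digit, together with listed peroxisomal enzymes and membrane proteins. Of these, 34 were measured, among 11963 genes in all. The rule for the names uses no measured value, though it was chosen with earlier results of these data known. The probe set read for each gene was the brightest on average on these arrays. PEX13, SCP2 and HACL1 were not analysed here.

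The RNA came from A375P, a human melanoma cell line, on 8 arrays. Short hairpin RNAs were delivered by lentivirus, 2 arrays for each of 4 hairpins. The controls were shGFP and shScr, and hairpins 65 and 66 targeted PGC1a, the transcriptional coactivator encoded by PPARGC1A. All groups share the cell line, the infection, puromycin selection for 48 h and a harvest 48 h later, so no array shows uninfected cells. Whether both arrays of a hairpin stem from separate cultures is not given in the labels. The p-values thus cover the scatter among these 8 arrays, and some of that scatter may be technical. The values are signals on a linear scale that the authors normalised, with a median of 137 to 142 over the probe sets of each array. Differences are on the log2 scale, PGC1a hairpins minus control hairpins. A gene is said to have risen or fallen where limma's adjusted p over all 11963 genes was under 0.05. In RNA of a whole culture, fewer cells of a type and less RNA per cell cannot be told apart.

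The targeted gene was checked first. PPARGC1A had signals of 560, 543, 570 and 551 on the control arrays and of 126, 144, 114 and 115 on the arrays with hairpins 65 and 66. Both PGC1a hairpins left it far below every control array, with means of 556 ± 11.7 and 125 ± 13.9 (SD, n = 4). It fell 4.48-fold, to 22.3% of the control level (log2 difference -2.16, limma's adjusted p = 3.98e-07; exact two-sided permutation p = 0.0286, the smallest that 4 against 4 arrays can give). The melanocyte lineage markers stand for the labelled cell type. Their summed signal was 18727 to 20235 on the control arrays and 14730 to 15958 with the PGC1a hairpins. Of 7 measured, 4 fell (PMEL, MITF, S100B, TYRP1) and SOX10 rose, beside 10.7% of all genes lower and 11.6% higher. The control hairpins differed in these markers too, with a median of 0.28 for shGFP minus shScr. With shGFP, 2 of the 7 were called higher and 0 lower, beside 7.85% of all genes called in either direction. Summed signals of 7 fibroblast markers (874 to 1380 and 973 to 1132), 6 epithelial markers (201 to 212 and 198 to 220) and 4 blood cell markers (143 to 159 and 134 to 158) overlapped between the arms; of these, PDGFRB, a fibroblast marker, rose. As a measure of RNA quality, the ACTB control probe sets for the 3′ end minus those for the 5′ end gave 2.19 ± 0.18 with the control and 2.53 ± 0.11 with the PGC1a hairpins (log2, SD, n = 4; exact two-sided permutation p = 0.0286), with no overlap. That of GAPDH did not separate the arms (0.17 and 0.18, exact permutation p = 0.571). The part that the melanocyte markers and the ACTB difference play in the results was not tested.

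PGC1a binds nuclear receptors and other transcription factors and is best known for raising genes of mitochondrial respiration and of fatty acid oxidation. Peroxisomes shorten very long and branched fatty acids, make the first bonds of ether lipids and break down hydrogen peroxide. Matrix enzymes carry a targeting signal that a soluble receptor reads in the cytosol; the receptor docks at the membrane, releases its cargo and is pulled out again by an ATPase pair. Membrane proteins take another way, through a chaperone in the cytosol and its docking protein on the membrane.

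Of the 34 members, 3 rose (PEX3, ACOX2, AMACR) and 6 fell (PEX19, PEX6, PXMP2, ACAA1, EHHADH, MLYCD), 26.5% in all. Of all genes, 22.2% passed the same threshold, 11.6% higher and 10.7% lower, so the members' share lay near the background. Without the 40% of genes lowest in signal, 2 members rose and 5 fell of 25, when 39.1% of the genes kept passed. The median difference was -0.019 over the members and -0.0045 over all genes. The median size of the difference, sign aside, was 0.093 over the members and 0.11 over all genes. The 4 control and 4 PGC1a arrays did not overlap for 3 members that were higher and 6 that were lower; 27.5% of all genes had such separate arms, 13.9% higher and 13.6% lower. Members with at least a 1.5-fold change past the threshold were PEX19 and ACOX2, beside 552 such genes in all. Differences were above 0 for 15 members and below 0 for 19, and 25 did not pass the test. The 7 other called members changed by less than 1.5-fold. With the ACTB difference as a covariate, PEX19 alone of the 9 passed, when 4.42% of all genes did. The ACTB values did not overlap between the arms, so this fit can hardly separate them from the hairpins. The differences themselves grew for AMACR (0.76), EHHADH (-0.68), ACAA1 (-0.36), MLYCD (-0.34) and PEX6 (-0.29), were close for PEX19 and PXMP2 (-0.26), and shrank for ACOX2 (0.50) and PEX3 (0.11). With both arrays of each hairpin averaged, PEX19 and ACOX2 passed, when 7.34% of all genes did.

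Insertion of membrane proteins was the role with the largest single change. PEX19 is the cytosolic chaperone that binds newly made peroxisomal membrane proteins and brings them to the organelle. Its signals were 947 and 955 with shGFP, 938 and 922 with shScr, 396 and 437 with hairpin 65, and 421 and 435 with hairpin 66. All 4 arrays with PGC1a hairpins were below all 4 control arrays by a wide gap, and the arrays within each arm lay close together. The mean was 940.4 ± 14.1 (SD, n = 4) with the control hairpins and 422 ± 18.7 (SD, n = 4) with the PGC1a hairpins. PEX19 fell 2.23-fold, to 44.9% of the control level (log2 difference -1.16, 95% interval -1.27 to -1.04, limma's adjusted p = 1.11e-06). The fall was of like size with hairpin 65 (-1.18, adjusted p = 1.71e-05) and hairpin 66 (-1.13, adjusted p = 1.94e-05), which share their control arrays. The control hairpins differed by 0.03 (adjusted p = 0.83). The second PEX19 probe set also fell, by 0.84 on the log2 scale (adjusted p = 3.88e-05). Among the 11963 genes PEX19 ranked 33 by the size of its fall and 10 by p, and 53 genes fell at least 2-fold. The call held in each of 22 alternatives, with a log2 difference of -1.18 to -0.996 and an adjusted p of 1.02e-08 to 0.00274; with the ACTB difference as a covariate it was -1.17 (adjusted p = 5.48e-04).

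PEX3 is the membrane anchor to which PEX19 delivers its cargo, and it went the other way. Its signals were 449 and 513 with shGFP, 581 and 561 with shScr, 637 and 664 with hairpin 65, and 597 and 619 with hairpin 66. The arms did not overlap, but the lowest values were those of shGFP, and the upper shScr array lay close to the lowest PGC1a array. The mean was 526 ± 58.9 (SD, n = 4) with the control hairpins and 629 ± 28.3 (SD, n = 4) with the PGC1a hairpins. PEX3 rose 1.20-fold (log2 difference 0.26, 95% interval 0.08 to 0.45, limma's adjusted p = 0.0448). This call was close to the threshold: it was lost in 16 of 22 alternatives, over which the adjusted p ran from 0.00691 to 0.746. With 1 array fewer the difference stayed between 0.19 and 0.31, and the call was lost without shGFP replicate 1 (adjusted p = 0.0797) or 2 (0.0958), without hairpin 65 replicate 1 (0.0980) or 2 (0.113), and without hairpin 66 replicate 1 (0.0625) or 2 (0.0808). The other PEX3 probe sets changed by 0.02 (adjusted p = 0.893) and 0.08 (adjusted p = 0.487). PEX16, which works with PEX3 in bringing membrane proteins to new peroxisomes, had signals of 1072 and 1027 in the control and PGC1a arms (-0.06, adjusted p = 0.532).

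The genes on either side of PEX19 on chromosome 1 in RefSeq assembly GRCh38.p14 were not called, and both lay above 0. DCAF8, which encodes a substrate receptor of a ubiquitin ligase, differed by 0.19 (adjusted p = 0.0838), and COPA, which encodes a coatomer subunit of Golgi vesicles, by 0.16 (adjusted p = 0.0621). Of the 11 measured genes that neighbour a called member, OSGIN1, next to MLYCD on chromosome 16, was called; it fell by 0.50 on the log2 scale (adjusted p = 0.00537). The other 10 differed by -0.18 to 0.29.

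Promoter windows show the sequence next to the start of a gene. Windows of 300 bases, 250 before and 50 after the start, came from RefSeq (GRCh38.p14) and matched 28 of the 34 members in 36 windows; PEX2, PEX14, ACOX2, ACAA1, EHHADH and CRAT have none here. PEX19 is shown for its fall, and PEX6 and MLYCD because they fell and hold an ETS match; PXMP2, which fell and has a window without a match, is not printed. Capitals mark matches to the ETS motif CCGGAAG on either strand. The PEX19 window is chr1:160285102-160285401 on the minus strand, the PEX6 window chr6:42979132-42979431 on the minus strand, and the MLYCD window chr16:83898865-83899164 on the plus strand.
PEX19: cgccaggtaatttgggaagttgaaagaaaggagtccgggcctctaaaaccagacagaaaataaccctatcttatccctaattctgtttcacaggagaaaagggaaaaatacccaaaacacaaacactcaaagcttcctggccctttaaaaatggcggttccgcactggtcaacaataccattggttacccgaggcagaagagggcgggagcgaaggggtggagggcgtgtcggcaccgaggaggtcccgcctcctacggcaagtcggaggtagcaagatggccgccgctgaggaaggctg
PEX6: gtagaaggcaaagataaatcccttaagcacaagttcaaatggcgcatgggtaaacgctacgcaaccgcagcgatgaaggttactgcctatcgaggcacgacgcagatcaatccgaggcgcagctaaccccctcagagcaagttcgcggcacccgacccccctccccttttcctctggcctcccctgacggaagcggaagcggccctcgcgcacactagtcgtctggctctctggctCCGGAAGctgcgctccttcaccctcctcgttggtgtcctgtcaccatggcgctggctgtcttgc
MLYCD: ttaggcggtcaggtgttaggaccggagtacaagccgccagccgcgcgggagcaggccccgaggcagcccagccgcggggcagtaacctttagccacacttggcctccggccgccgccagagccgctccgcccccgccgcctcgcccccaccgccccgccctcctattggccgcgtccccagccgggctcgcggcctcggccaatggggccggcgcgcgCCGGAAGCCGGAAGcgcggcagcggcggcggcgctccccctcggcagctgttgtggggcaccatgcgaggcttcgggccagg
The MLYCD window holds adjoining ETS matches that begin 32 and 25 bases before the start, PEX6 one that begins 14 bases before it, and the PEX19 window none.

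Each motif was searched on both strands of all windows. The ETS motif was in 9 of the 36 member windows (25%), those of PEX5, PEX6, PEX11A, PEX16, PEX26, ABCD4, GNPAT, ACOT8 and MLYCD. It was in 10.3% of all 35116 RefSeq windows and in 13.1% of the 14058 windows of genes tested on the arrays. Of those 9 members, PEX6 and MLYCD fell and none rose, beside 10.7% of all genes lower and 11.6% higher. The E-box CACGTG was in 3 member windows (PEX10, PECR, GNPAT) and in 7.26% of all windows. The palindromic NRF1 site was in the window of GNPAT and in 1.24% of all windows. The extended ERR half-site TCAAGGTCA was in 0 of 36 member windows, as against 0.353% of all, and the PPAR-RXR element, AGGTCA repeated after 1 free base, in 0 of 36, as against 0.0228%. A match is a description of the letters in these windows; no binding was measured.

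Import receptors, which read the targeting signals of matrix enzymes, did not pass the test. PEX5, the receptor of most matrix enzymes, had mean signals of 923 and 1010.4 in the control and PGC1a arms (0.13, 95% interval 0.01 to 0.25, limma's adjusted p = 0.123), and its other probe set differed by -0.08. PEX7, the receptor for a second, N-terminal signal that a few enzymes use, differed by 0.05 (adjusted p = 0.763). PEX14, the docking partner of PEX5 at the membrane, differed by -0.10 (adjusted p = 0.321). PEX5L, a relative of PEX5 known mainly from neurons, had signals near the bottom of the range on every array.

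Among genes for recycling the receptor, 1 of 4 fell and 0 rose, beside 10.7% of all genes lower and 11.6% higher. PEX6 is 1 of the 2 ATPases that pull the receptor back out of the membrane. Its signals were 178 and 175 with shGFP, 164 and 147 with shScr, 135 and 142 with hairpin 65, and 138 and 134 with hairpin 66. The PGC1a arrays were all lower than the control arrays, and shScr replicate 2 came nearest to them. The mean was 166 ± 14.1 (SD, n = 4) with the control hairpins and 137 ± 3.43 (SD, n = 4) with the PGC1a hairpins, a 1.21-fold fall (log2 difference -0.27, 95% interval -0.42 to -0.12, limma's adjusted p = 0.0165). Its second probe set fell by 0.31 on the log2 scale (adjusted p = 0.00919). PEX6 was called with each hairpin (65, -0.26, adjusted p = 0.0221; 66, -0.28, adjusted p = 0.0163), but not without both shGFP arrays (-0.18, adjusted p = 0.103), without both arrays of hairpin 65 (adjusted p = 0.0941) or of hairpin 66 (adjusted p = 0.118), and its adjusted p ran from 0.00230 to 0.238 over the alternatives. PEX26, which tethers the ATPase pair to the membrane, differed by -0.13 (adjusted p = 0.236). The ubiquitin ligase subunits PEX2 and PEX10, which mark the receptor for export, differed by 0.06 (adjusted p = 0.465) and -0.019 (adjusted p = 0.854).

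PEX11A, which helps to elongate peroxisomes before they divide, had signals of 74.6 and 63.2 with shGFP, 55.9 and 53.3 with shScr, 47.0 and 48.9 with hairpin 65, and 55.8 and 57.1 with hairpin 66. The shGFP arrays were the highest, and the shScr arrays lay within the range of the PGC1a arrays. It did not pass in the comparison of both hairpins with the controls (-0.23, 95% interval -0.48 to 0.01, limma's adjusted p = 0.170). Hairpin 65 alone gave a fall of 0.35 on the log2 scale (adjusted p = 0.0129) and hairpin 66 a difference of -0.12 (adjusted p = 0.325). The test of the difference between these hairpins gave 0.24 (adjusted p = 0.652), and that between shGFP and shScr 0.33 (adjusted p = 0.0610).

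Of the membrane proteins without a peroxin symbol, PXMP2 forms a channel for small solutes. Its signals were 642 and 663 with shGFP, 576 and 614 with shScr, 502 and 549 with hairpin 65, and 503 and 513 with hairpin 66. All PGC1a arrays were below all control arrays, and the shGFP arrays were the highest. The mean was 624 ± 37.5 (SD, n = 4) with the control hairpins and 517 ± 22 (SD, n = 4) with the PGC1a hairpins. PXMP2 fell 1.21-fold (log2 difference -0.27, 95% interval -0.40 to -0.14, limma's adjusted p = 0.00926), by 0.25 with hairpin 65 (adjusted p = 0.0222) and by 0.29 with hairpin 66 (adjusted p = 0.0111) on the log2 scale. It was not called without both shGFP arrays (adjusted p = 0.0621) or both hairpin 66 arrays (adjusted p = 0.0920), in a range of 0.00370 to 0.242. PXMP4 differed by 0.018 (adjusted p = 0.903).

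The ABC transporters carry fatty acids or their CoA esters into peroxisomes, apart from ABCD4, which serves cobalamin export from lysosomes. None of 3 measured was called, and 1 had an unadjusted p under 0.05, beside 3991 of all 11963 genes. ABCD3 had mean signals of 1327 and 1418 in the control and PGC1a arms (0.095, adjusted p = 0.236). ABCD4 had signals of 347 and 312 with shGFP, 324 and 309 with shScr, 287 and 299 with hairpin 65, and 300.5 and 289.8 with hairpin 66. Its arms did not overlap, as held for 27.5% of all genes. The ABCD4 difference of -0.13 (95% interval -0.25 to -0.01) missed the threshold (limma's adjusted p = 0.108). ABCD2 was among 5 members, with PEX5L, DAO, HAO1 and PIPOX, whose signals lay between 11.1 and 22 on all arrays; without detection calls it is not known whether they exceed background.

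**Figure D1:**
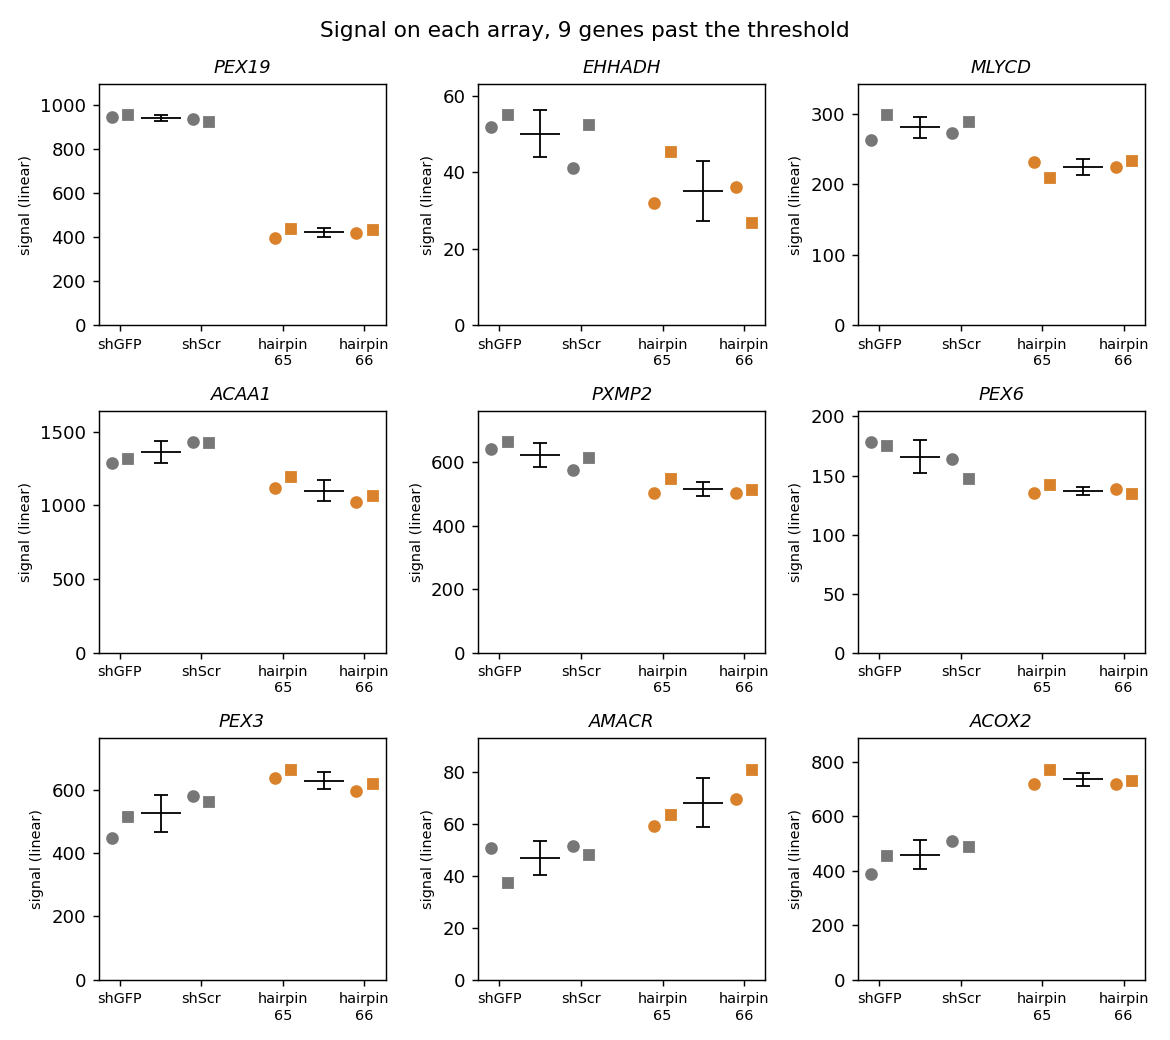
Signal (linear axis) of the 9 members past the threshold on each of the 8 arrays, by hairpin, with the mean and SD of each arm. The PEX19 arrays separate by the widest gap, from 922 or more to 437 or less, and EHHADH is the only one of the 9 whose arms overlap.

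Peroxisomal beta-oxidation is the stepwise shortening of fatty acids. Of its 8 members measured, 2 rose and 2 fell, beside 11.6% of all genes higher and 10.7% lower. ACOX2 is the oxidase that starts the breakdown of branched fatty acids and of bile acid intermediates. Its signals were 387 and 453 with shGFP, 511 and 486 with shScr, 719.6 and 772 with hairpin 65, and 720.0 and 731 with hairpin 66. Every PGC1a array was above every control array, with shGFP replicate 1 the lowest of all. The mean was 459 ± 53.7 (SD, n = 4) with the control hairpins and 736 ± 24.6 (SD, n = 4) with the PGC1a hairpins. ACOX2 rose 1.61-fold (log2 difference 0.69, 95% interval 0.50 to 0.87, limma's adjusted p = 3.16e-04), by 0.71 with hairpin 65 (adjusted p = 5.54e-04) and by 0.67 with hairpin 66 (adjusted p = 7.47e-04). The shGFP and shScr arrays differed by -0.25 (adjusted p = 0.134). The call held in 21 of 22 alternatives (adjusted p from 2.85e-05 to 0.0639) and was lost with the ACTB difference as a covariate (0.50, adjusted p = 0.0639).

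AMACR is the racemase that turns branched acyl-CoA esters into the form that ACOX2 accepts. Its signals were 50.7 and 37.4 with shGFP, 51.5 and 48.1 with shScr, 59.1 and 63.3 with hairpin 65, and 69.4 and 80.9 with hairpin 66. The arms did not overlap, and shGFP replicate 2 was the lowest array and hairpin 66 replicate 2 the highest. The mean was 46.9 ± 6.50 (SD, n = 4) with the control hairpins and 68.2 ± 9.48 (SD, n = 4) with the PGC1a hairpins. AMACR rose 1.45-fold (log2 difference 0.54, 95% interval 0.27 to 0.81, limma's adjusted p = 0.0108). Hairpin 66 alone passed (0.69, adjusted p = 0.00700) and hairpin 65 did not (0.39, adjusted p = 0.0595); the difference between them was not called. A second AMACR probe set differed by -0.02 (adjusted p = 0.906), so it did not show the rise. A further 3 probe sets name AMACR together with other genes and were not used. The call was lost without both hairpin 66 arrays (0.39, adjusted p = 0.108), in a range of 0.00543 to 0.108.

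ACAA1, the thiolase that takes the last step, had signals of 1287 and 1314 with shGFP, 1428 and 1425 with shScr, 1118 and 1191 with hairpin 65, and 1025 and 1066 with hairpin 66. All PGC1a arrays were below all control arrays, and those of hairpin 66 were the lowest. The mean was 1364 ± 73.7 (SD, n = 4) with the control hairpins and 1099.8 ± 71.3 (SD, n = 4) with the PGC1a hairpins. ACAA1 fell 1.24-fold (log2 difference -0.31, 95% interval -0.45 to -0.17, limma's adjusted p = 0.00660), by 0.24 with hairpin 65 (adjusted p = 0.0151) and by 0.38 with hairpin 66 (adjusted p = 0.00197) on the log2 scale, and its second probe set fell by 0.28 (adjusted p = 0.00446). It was not called without both hairpin 66 arrays (adjusted p = 0.0799), in a range of 0.00161 to 0.136. EHHADH, the bifunctional enzyme of the middle steps, had signals of 51.8 and 55.0 with shGFP, 41.2 and 52.5 with shScr, 32.1 and 45.2 with hairpin 65, and 36.3 and 26.8 with hairpin 66. These are low values, and hairpin 65 replicate 2 lay above shScr replicate 1, so the arms overlapped. The mean was 50.1 ± 6.11 (SD, n = 4) with the control hairpins and 35.1 ± 7.79 (SD, n = 4) with the PGC1a hairpins. EHHADH fell 1.44-fold (log2 difference -0.53, 95% interval -0.87 to -0.19, limma's adjusted p = 0.0315).

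The EHHADH call was close to the threshold. With 1 array fewer its difference stayed between -0.66 and -0.41, and the call was lost without shGFP replicate 1 (adjusted p = 0.0730) or 2 (0.0785), shScr replicate 2 (0.0661), hairpin 65 replicate 1 (0.0814), or hairpin 66 replicate 1 (0.0605) or 2 (0.0689), in a range of 0.00897 to 0.209. Hairpin 66 passed alone (-0.68, adjusted p = 0.0317) and hairpin 65 did not (-0.39, adjusted p = 0.167). HSD17B4, the other bifunctional enzyme, which serves branched and straight chains, differed by -0.020 (adjusted p = 0.853). ACOX3, a second oxidase of branched chains, differed by -0.15 (adjusted p = 0.232), and PECR, a reductase of unsaturated acyl-CoA, by -0.13 (adjusted p = 0.213). ACOT8, a thioesterase that frees fatty acids from CoA, differed by 0.04 (adjusted p = 0.776).

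MLYCD, malonyl-CoA decarboxylase, removes the inhibitor of carnitine palmitoyltransferase and is found in peroxisomes, mitochondria and the cytosol. Its signals were 263 and 298 with shGFP, 272 and 288 with shScr, 232 and 209 with hairpin 65, and 224 and 232 with hairpin 66. All PGC1a arrays were below all control arrays. The mean was 280.3 ± 15.5 (SD, n = 4) with the control hairpins and 224 ± 11 (SD, n = 4) with the PGC1a hairpins. MLYCD fell to 80.0% of the control level (log2 difference -0.32, 95% interval -0.45 to -0.19, limma's adjusted p = 0.00400), by 0.35 with hairpin 65 (adjusted p = 0.0135) and by 0.30 with hairpin 66 (adjusted p = 0.0262) on the log2 scale. The carnitine acyltransferases CRAT, for short chains, and CROT, for medium chains, differed by -0.04 (adjusted p = 0.599) and 0.02 (adjusted p = 0.928).

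Other pathways of the organelle showed no call. PHYH, the hydroxylase that starts alpha-oxidation of phytanic acid, had mean signals of 1153 and 1188 in the control and PGC1a arms (0.04, limma's adjusted p = 0.640). The first enzymes of ether lipid synthesis, GNPAT and AGPS, differed by -0.04 (95% interval -0.15 to 0.06, adjusted p = 0.598) and 0.04 (95% interval -0.07 to 0.15, adjusted p = 0.601). The oxidases of amino acids and glycolate, PIPOX, DAO and HAO1, differed by -0.09, 0.04 and 0.09 at the low signals given above. Over the 25 members that did not pass, differences ran from -0.23 to 0.13, and their 95% intervals lay between -0.48 and 0.28. Those intervals leave room for changes of the size seen for PEX6 or MLYCD in some of these genes, and a p that misses the threshold does not show an unchanged level.

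Taken 1 hairpin at a time, hairpin 65 gave 8 called members (2 rose, 6 fell), when 23.4% of all genes passed, 13.0% higher and 10.4% lower. Hairpin 66 also gave 8 (2 rose, 6 fell), with 22.1% of all genes, 11.2% higher and 10.9% lower. Both comparisons use the same control arrays. Between hairpin 66 and hairpin 65, 0 members and 0% of all genes passed limma's threshold. Without adjustment 3 members (ACAA1, CROT, PEX11A) and 849 genes had a p under 0.05, and the members' 95% intervals for this difference ran from -0.77 to 0.63. Between shGFP and shScr, 0 members passed and 7.85% of all genes did, 4.40% higher and 3.45% lower with shGFP. Without adjustment, 8 of the 34 members had a p under 0.05 there, beside 2730 of all 11963 genes, a like share. The 8 were PEX3, PEX6, PEX11A, PXMP4, ABCD2, ACOX2, CROT and ACOT8. The controls thus differed among themselves for PEX3 (-0.25, adjusted p = 0.103) by nearly as much as PEX3 rose.

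**Figure D2:**
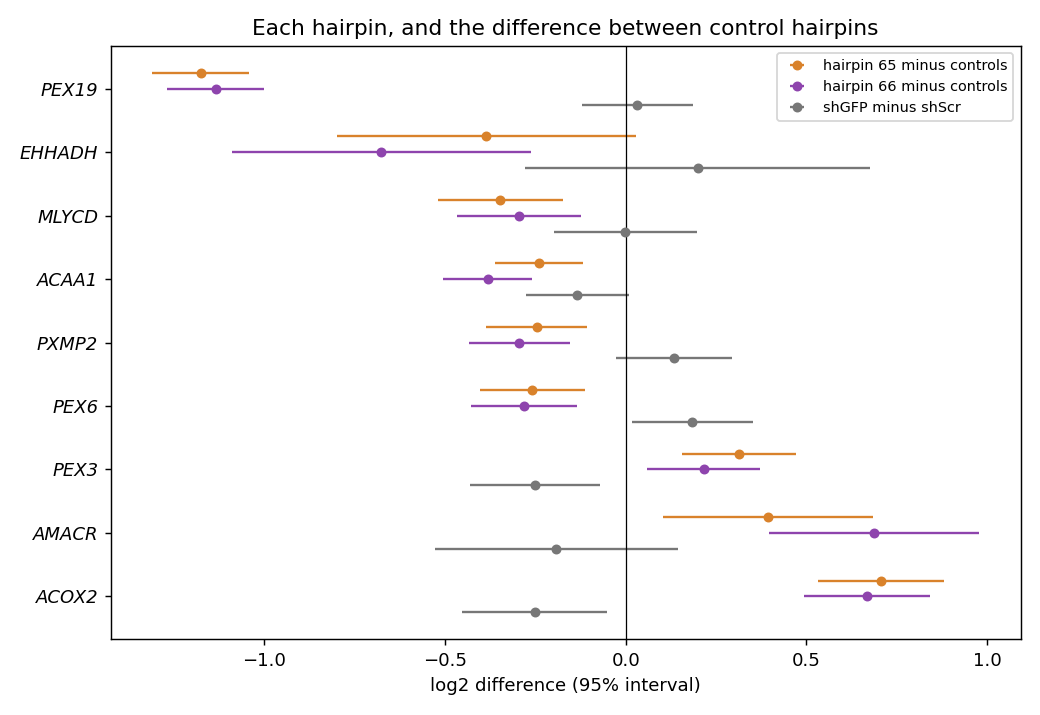
Log2 difference of each of the 9 called members with hairpin 65 and with hairpin 66 against the same 4 control arrays, beside the difference between shGFP and shScr, with 95% confidence intervals. With both hairpins, every called member except PEX3 differs from the controls by more than the controls differ from each other. For PEX3 the control difference (-0.25) is close in size to its change with hairpin 65 (0.31) and hairpin 66 (0.22).

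Counting only probe sets that name 1 gene, the 34 members had 50 in all, and 14 members had more than 1. The probe sets of 11 of these 14 shared a sign. The signs were mixed for 3. When every probe set that names 1 gene was tested on its own, 19.5% passed. Because the probe set with the highest mean was used for each gene, the results for PEX3 and AMACR hold for that probe set only, while for PEX19, PEX6 and ACAA1 a second probe set fell too.

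Other peroxisomal proteins outside the rule were read from a list of 35 genes, of which 25 were measured: 0 rose and 6 fell, with 1 higher and 7 lower at an unadjusted p under 0.05, and a median of -0.06. Over all 11963 genes, 11.6% rose and 10.7% fell, and 2003 were higher and 1988 lower at an unadjusted p under 0.05. These values are the background for this and the next lists. The falls were in TMEM135, a membrane protein linked to peroxisomes and mitochondria (mean signal 1164 ± 89.6 in the control and 761 ± 33.1 in the PGC1a arm, SD, n = 4; log2 difference -0.61, limma's adjusted p = 1.56e-04), MPV17 (-0.48, adjusted p = 6.48e-04), LONP2, a protease of the matrix (-0.45, adjusted p = 0.00108), GSTK1 (-0.43, adjusted p = 0.00121), IDH1 (-0.27, adjusted p = 0.00360) and FAR2, which makes fatty alcohols (-0.45, adjusted p = 0.0178). MPV17 acts in mitochondria, and GSTK1 and IDH1 also act in mitochondria or the cytosol. For FAR2 the control hairpins differed as well (0.44, adjusted p = 0.00689). CAT, catalase, which splits hydrogen peroxide, differed by 0.09 (adjusted p = 0.259). Of 6 genes of division and tethering that peroxisomes share with mitochondria or other organelles, 0 rose and 2 fell: TRIM37, a ubiquitin ligase of the peroxisomal membrane (-0.48, adjusted p = 1.12e-04), and MFF, the receptor for the fission GTPase (-0.21, adjusted p = 0.0423).

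Mitochondria also burn fatty acids, and their pathway was read from a list of 18 genes. Of 17 measured, 0 rose and 8 fell, beside 11.6% of all genes higher and 10.7% lower, with a median of -0.20. At an unadjusted p under 0.05, 0 were higher and 14 lower, beside 2003 higher and 1988 lower of all 11963 genes. The controls differed in this list too: with shGFP, 15 of the 17 lay above shScr, with a median difference of 0.12. At an unadjusted p under 0.05, 5 were higher with shGFP and 0 lower, beside 1464 higher and 1266 lower of all 11963 genes. The smallest p-values were those of ECI1, an isomerase (-0.64, limma's adjusted p = 6.44e-05), ETFDH, which passes electrons to ubiquinone (-0.53, adjusted p = 1.35e-04), and DECR1, a reductase for unsaturated chains (-0.53, adjusted p = 0.00449), which also differed between shGFP and shScr (0.37, adjusted p = 0.0258). The beta-oxidation members of the peroxisome had a median of -0.07, with 2 of 8 higher and 2 of 8 lower. The difference between the pathways was not tested. Among 13 measured genes for PPAR and RXR receptors and their partners (15 listed), 3 rose and 3 fell, the targeted gene among the falls. PPARG rose from 68.7 to 132 (0.97, adjusted p = 0.00204), NRIP1, a corepressor, rose (0.86, adjusted p = 1.29e-04) and RXRB rose (0.19, adjusted p = 0.0370). PPARGC1A, ESRRA, a nuclear receptor that PGC1a coactivates (-0.70, adjusted p = 1.39e-04), and RXRA (-0.69, adjusted p = 2.39e-04) fell. PPARA, the receptor best known for raising peroxisomal beta-oxidation genes in rodent liver, differed by -0.09 (adjusted p = 0.438), and PPARD by -0.08 (adjusted p = 0.635).

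**Figure D3:**
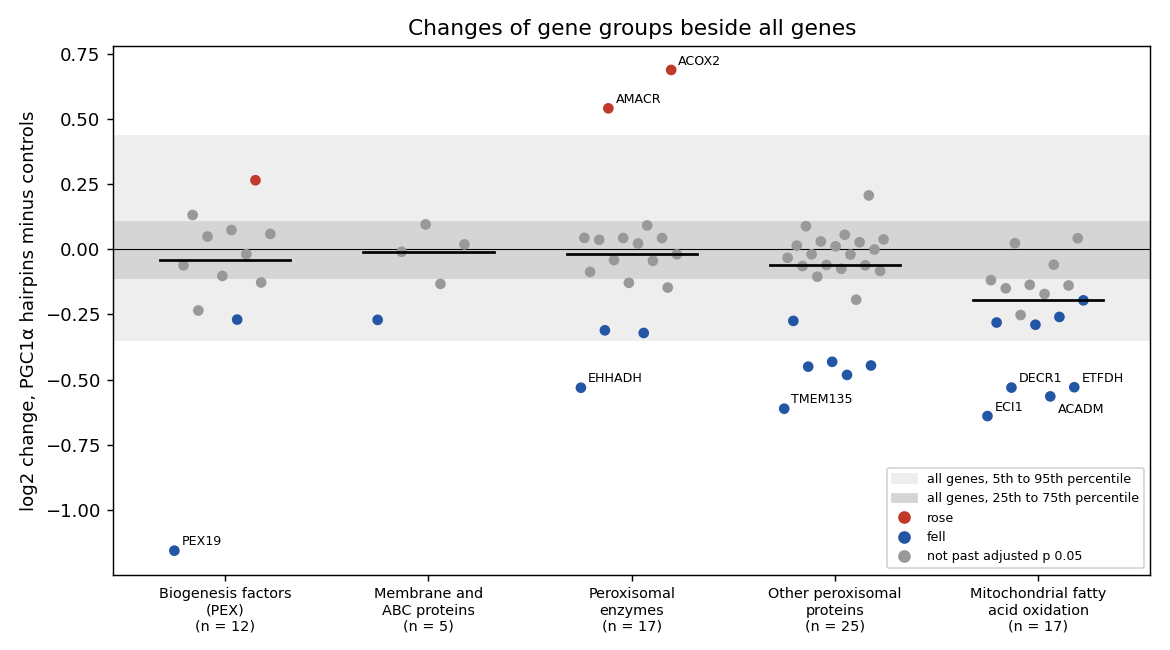
Log2 differences (PGC1a hairpins minus control hairpins) by group, with the median of each, over bands for the percentiles of all 11963 genes. The groups are the PEX members, the membrane and ABC proteins, the enzymes, other peroxisomal proteins and mitochondrial fatty acid oxidation. The median lies at -0.20 for mitochondrial fatty acid oxidation, -0.06 for other peroxisomal proteins, -0.04 for the PEX members and -0.02 for the enzymes. The medians of all members together (-0.019) and of all genes (-0.0045) are not drawn.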

How the data were processed

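Total RNA of A375P cells was hybridised to 8 arrays for human genes, 2 for each of 4 hairpins. The deposited values are intensity values on a linear scale, made with RMA per the submitters' processing notes (version not stated); scanner image files were not used here. Of 22277 probe sets, 19070 had 1 gene symbol, 1043 several and 2164 none. Each of 11963 genes was read from its brightest probe set on average, unfiltered, after taking log2.

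The 4 PGC1a hairpin arrays were compared with the 4 control arrays in a 2-group fit with limma 3.58.1 (R 4.3.3). A 4-group fit gave each hairpin against the controls, hairpin 66 against 65 and shGFP against shScr. Benjamini-Hochberg adjustment ran over all 11963 genes, and 0.05 was the threshold. Precision is limited by how few arrays there are. The 2-group fit was first tested on simulated data in which the changes were known. The contrasts of the 4-group fit were not tested in this way.

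The members and the other gene lists were chosen with earlier results of these data known. Named are PPARGC1A, every member, and of each other list the called genes with the smallest p; further list genes were named after their values were seen. Promoter windows came from RefSeq (GRCh38.p14). Exact permutation tests used scipy 1.17.1. Results were recomputed with the mean of a gene's probe sets, a signal filter, quantile or cyclic loess normalization, a trend and robust variance, a replicate block, without s_at and x_at probe sets (which can match several transcripts), without each array or hairpin, with hairpin as a random block, with the arrays of a hairpin averaged, and with ACTB 3′ minus 5′ as a covariate.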

Additional observations from a re-analysis of the deposited data

How the results depend on the processing

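No direction changed for PPARGC1A or the 9 called members; the 25 others were not followed gene by gene. PPARGC1A and PEX19 kept their calls in all 22 alternatives. Of the main comparison's 3 rises and 6 falls, 1 rise and 2 falls passed without both hairpin 66 arrays, 3 falls without both shGFP arrays, 1 rise and 1 fall with the 2 arrays of each hairpin averaged (ACOX2, adjusted p = 0.0182; PEX19, adjusted p = 0.00274), and 0 rises and 1 fall (PEX19) with the ACTB difference as a covariate, where differences shrank for PEX3 and ACOX2 and not for most others. All genes called went from 2659 to 1387 without hairpin 65, 1467 without hairpin 66, 878 averaged and 529 with the covariate. Without s_at and x_at probe sets, 1601 of fewer genes tested were called (19.1%). Without both shScr arrays 3099 genes were called, with 3 rises and 7 falls among the members, PEX11A being the added fall (-0.40, adjusted p = 0.0251). Leaving out 1 array gave 2 to 3 rises and 5 to 6 falls. Hairpin as a random block ended the calls of PEX3 (adjusted p = 0.0743) and EHHADH (adjusted p = 0.0746). For hairpin 65, 5 of 22 members tested passed without s_at and x_at probe sets, and 4 to 8 of 34 with 1 array left out (4 without hairpin 65 replicate 1 or 2). For hairpin 66 this was 3 to 8 (5 without its replicate 1, 3 without its replicate 2). Between shGFP and shScr, 2 members passed without the 40% of genes lowest in signal (CROT, PEX3), 3 with a trend and robust variance (ACOX2, CROT, PEX3), and 0 to 1 with 1 array left out (PEX11A without shGFP replicate 2, adjusted p = 0.0364). Hairpin 66 against hairpin 65 gave 0 in each of 15 alternatives.

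The replicate block gave 2 rises and 6 falls, with 2437 genes called, and ended only the call of PEX3 among the 9 (adjusted p = 0.0596). Same-numbered arrays did not vary together (correlations of -0.11 to 0.043 between hairpins). Whether they share a batch or a culture day is not given in the labels. With 2 arrays a hairpin and no detection calls, small differences at low signals (AMACR, EHHADH, PEX11A) are the least certain.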
